A study of Mus musculus with 2 samples.

Results

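Leukocytes leave the blood through a fixed order of contacts with the vessel wall, and the 8 genes described here encode proteins of those contacts. They are Selp (P-selectin), Sele (E-selectin), Selplg (P-selectin glycoprotein ligand), Icam1, Icam2, Vcam1, Ackr1 (the atypical chemokine receptor, also called DARC) and Vwf (von Willebrand factor). They were taken by symbol from the gene column of the deposited matrices, where all 8 were found among 28625 symbols.

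Selectins catch passing leukocytes and let them roll, with Selplg on the leukocyte as the main partner of P-selectin. Icam1, Icam2 and Vcam1 belong to the immunoglobulin family and hold leukocytes firmly through integrins. Ackr1 moves chemokines across venular endothelium without signalling through G proteins, and Vwf captures platelets and fills the Weibel-Palade bodies, the endothelial granules that also store P-selectin.

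The study used droplet-based single-cell RNA sequencing (10x 3' v2 chemistry) of the tibialis anterior, a muscle of the lower hind leg, from C57B/6 mice aged 12 weeks and kept on standard chow. For the injured library the muscle had been injected with 1.2% barium chloride, a salt that kills muscle fibres, and was taken 1 day later. The uninjured library was the control. Its labels repeat the injection protocol, so whether the control muscle had any injection could not be settled. Both tissues were digested with protease, so the values come from dissociated cells.

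There was 1 library per group, so no test of injury was possible. All intervals below are 95% intervals that cover counting error only and not the difference between mice. After filters, 4260 of 4489 injured and 5136 of 5581 uninjured barcodes were kept, with median depths of 7282 and 3237 UMIs (counted RNA molecules) per barcode before filtering. The libraries shared 33 barcodes. They also differed in sex-linked transcripts: Xist had 0 UMIs in injured and 16538 UMIs in uninjured cells, and 4 Y-linked genes had 4445 UMIs in injured and 0 in uninjured cells. Injury, library and this difference cannot be told apart.

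Cells were clustered with the 8 genes left out, and clusters were named from marker genes, with the suffix "-like". Endothelial-like cells, the lining of vessels, came to 450 injured cells (10.6% of cells kept) and 2640 uninjured cells (51.4%). Monocyte/macrophage-like cells numbered 2453 in the injured and 130 in the uninjured library. In both libraries all 12 endothelial markers, Pecam1 and Cdh5 among them, were found in the endothelial-like cells, with a summed level of 6657 CPM (UMIs of a gene per 1000000 UMIs of the class) in injured and 10856 CPM in uninjured cells. Most injured endothelial-like cells (339) lay in cluster 10, led by Apln, Pgf and Angpt2. Uninjured endothelial-like cells lay mainly in clusters 2, 3, 5 and 8, with 874, 725, 559 and 362 cells, and put 15 cells in cluster 10.

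The endothelial-like cells of each library were clustered again, once more without the 8 genes, and subclusters were named venous, arterial or capillary from 12 markers each. Venous subclusters held 49 injured and 368 uninjured cells, arterial ones 43 and 540, and capillary ones 142 and 1312. A further 216 injured and 420 uninjured cells stayed unnamed. Among the unnamed injured cells were subclusters led by Gal and Bmp2, by Pgf and Fosl1, by Ankrd1 and Tagln, and one led by haemoglobin and leukocyte genes.

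The genes lie at the following places in the mouse genome (GRCm38, GENCODE M21), each annotated as protein coding. Selp (ENSMUSG00000026580) and Sele (ENSMUSG00000026582) are near each other on the plus strand of chromosome 1, at 164115264 to 164150026 and at 164048234 to 164057677. Ackr1 (ENSMUSG00000037872) is on the minus strand of the same chromosome at 173331886 to 173333750. Icam1 (ENSMUSG00000037405) is on chromosome 9 at 21015985 to 21028817 on the plus strand, and Vwf (ENSMUSG00000001930) on chromosome 6 at 125546774 to 125686679 on the plus strand. Icam2 (ENSMUSG00000001029) is on chromosome 11 at 106377656 to 106388075, Vcam1 (ENSMUSG00000027962) on chromosome 3 at 116109949 to 116129688, and Selplg (ENSMUSG00000048163) on chromosome 5 at 113818536 to 113832644, all on the minus strand.

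Promoter windows from RefSeq (GRCm38.p6), 250 bases before to 50 bases after the RefSeq start, were matched for 4 of the 8 genes. That start, used throughout below, equals the gene start given above for Selp and Sele but not for Icam1 and Ackr1. Windows are shown for Selp and Sele, which were higher in venous cells, and for Icam1, which was higher in arterial and capillary cells. These are the windows that held a motif match. The window of Ackr1, also higher in venous cells, held 0 matches to the motifs named below and is not shown. It spans 173333454 to 173333753 on the minus strand, almost wholly inside the gene as given above (up to 173333750). Bases upstream of that gene were thus almost all left out of the search. Capitals mark a match to the AP-1 motif TGANTCA in the first and second sequence and to GGAANTTCC, a kappaB-type variant, in the third.
Selp chr1:164115014-164115313 plus strand: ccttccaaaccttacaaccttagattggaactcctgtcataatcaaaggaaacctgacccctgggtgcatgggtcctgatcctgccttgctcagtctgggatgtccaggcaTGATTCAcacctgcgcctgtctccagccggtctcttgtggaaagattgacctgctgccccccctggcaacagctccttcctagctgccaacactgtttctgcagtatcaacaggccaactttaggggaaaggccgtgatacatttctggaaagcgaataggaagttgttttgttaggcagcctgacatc
Sele chr1:164047984-164048283 plus strand: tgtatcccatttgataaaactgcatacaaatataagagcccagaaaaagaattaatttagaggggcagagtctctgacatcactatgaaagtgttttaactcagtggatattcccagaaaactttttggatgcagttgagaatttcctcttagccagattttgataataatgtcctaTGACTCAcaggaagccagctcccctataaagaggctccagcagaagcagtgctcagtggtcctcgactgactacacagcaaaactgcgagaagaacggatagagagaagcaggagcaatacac
Icam1 chr9:21015690-21015989 plus strand: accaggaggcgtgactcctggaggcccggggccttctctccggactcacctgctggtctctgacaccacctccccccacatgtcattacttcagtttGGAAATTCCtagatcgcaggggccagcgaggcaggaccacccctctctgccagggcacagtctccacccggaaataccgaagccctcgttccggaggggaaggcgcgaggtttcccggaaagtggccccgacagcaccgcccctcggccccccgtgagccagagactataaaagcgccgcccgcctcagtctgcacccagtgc
Both strands were searched. The AP-1 match TGATTCA begins 139 bases before the Selp start, TGACTCA begins 73 bases before the Sele start, and GGAAATTCC begins 153 bases before the Icam1 start. Of 32851 promoter windows of this length, 7.81% held the AP-1 motif and 0.928% the variant, which was chosen after the windows had been read. The NF-kappaB consensus, found in 8.46% of windows, had no match in the 4 windows, including that of Ackr1. A match is a string of letters and was not tested as a binding site.

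Selp was mainly a venous transcript in both libraries, and its level there was higher in the injured library. Venous endothelial-like cells held 82.0% of the 629 Selp UMIs of the injured library and 93.6% of the 812 UMIs of the uninjured library. Their level was 1103 CPM (1010 to 1203) in injured and 507 CPM (471 to 544) in uninjured cells, 2.18-fold higher (1.94 to 2.44). A Selp UMI was found in 91.8% of injured venous cells (45 of 49) and in 54.9% of uninjured ones (202 of 368). With every cell thinned to 1500 UMIs the shares were 59.2% and 35.9%. Median depth was 8927 UMIs in the injured and 3605 UMIs in the uninjured venous cells.

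The Selp difference was seen in the middle of the cell distribution as well as in its total. Scaled to 10000 UMIs per cell, single injured venous cells ranged from 0 to 89.4 with a median of 7.34, and uninjured cells from 0 to 69.2 with a median of 2.37. The cells of the libraries overlapped over nearly the whole range. In injured cells the top cell held 45 of 516 Selp UMIs.

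Outside veins Selp was found in few cells. Capillary-like cells had 1.05 CPM in injured (1 UMI) and 1.36 CPM in uninjured muscle (5 UMIs). Arterial-like cells had 15 UMIs in 4 of 43 injured cells (41.6 CPM, 23.3 to 68.7) and 2 UMIs in 540 uninjured cells (0.977 CPM), a ratio of 42.6 with a wide counting interval of 9.91 to 384. A further 58 UMIs in the injured library came from 3 cells of the unnamed subcluster led by haemoglobin and leukocyte genes. Monocyte/macrophage-like cells, which should lack the gene, had a UMI in 0.245% of injured cells and in 0 of 130 uninjured cells (a share of up to 2.31%). Over all endothelial-like cells Selp was 1.98-fold higher, at 168 CPM (155 to 182) in injured and 84.9 CPM (79.0 to 91.1) in uninjured cells. With finer clusters (resolution 2) that ratio was 1.19, while the venous ratio was 3.96, on 21 injured venous cells.

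Sele, which catches neutrophils and monocytes on inflamed endothelium, followed the same vessels at lower counts. Venous cells held 50 of 68 Sele UMIs in the injured library (73.5%) and 58 of 62 in the uninjured library (93.5%). The venous level was 107 CPM (79.4 to 141) in injured and 38.7 CPM in uninjured cells, 2.76-fold higher (1.86 to 4.11), and 6.39-fold higher at resolution 2. A UMI was found in 36.7% of injured and 10.3% of uninjured venous cells, and in 8.16% and 4.89% after thinning, whose intervals overlapped (2.27 to 19.6 and 2.92 to 7.62). In the uninjured library no Sele UMI was found in 1312 capillary-like cells (up to 0.229%), against 1 UMI in 142 injured ones.

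**Figure D1:**
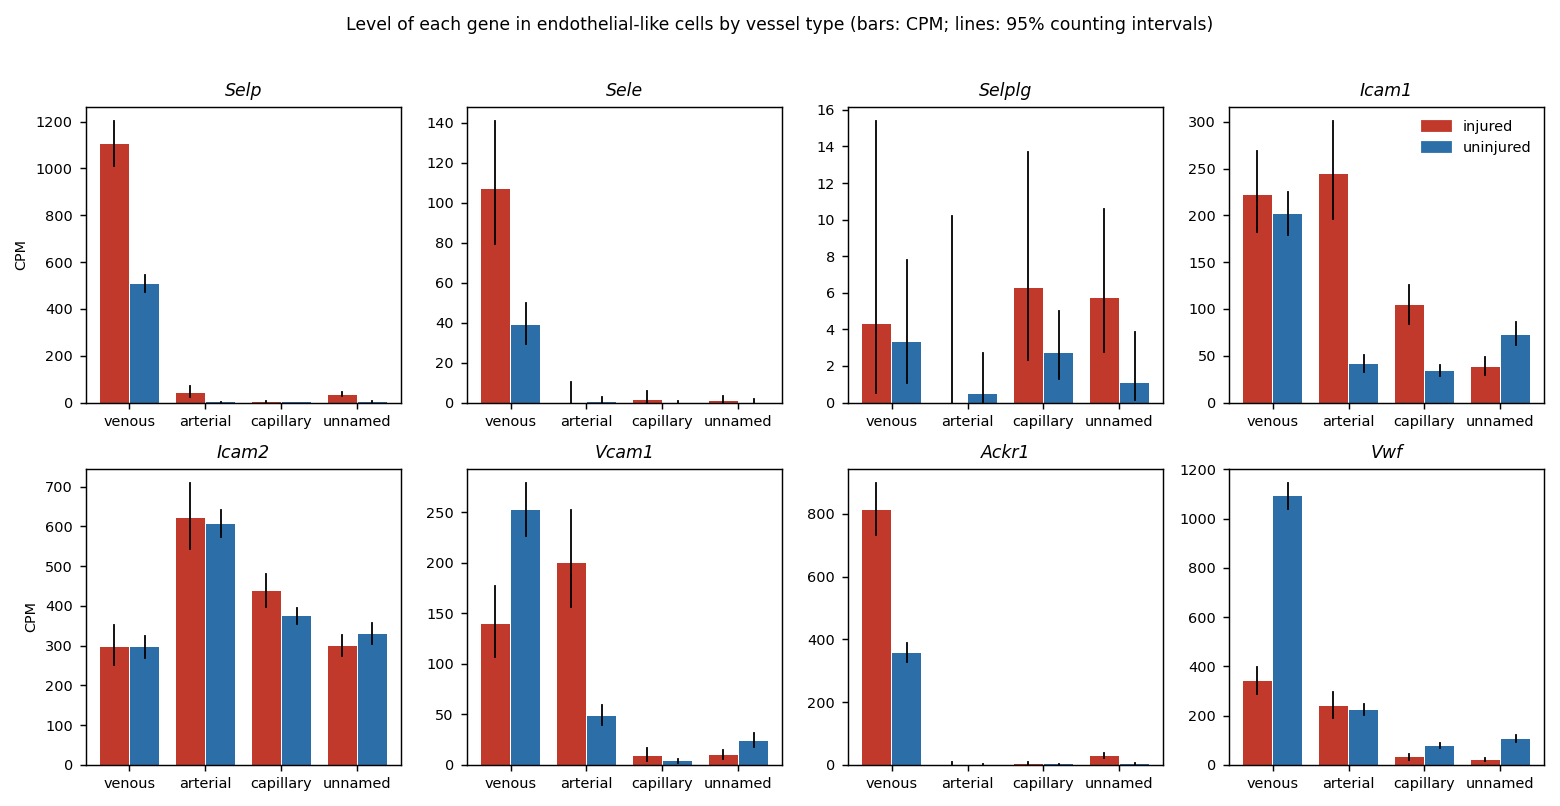
Level in CPM (vertical axis, linear) of each gene in venous, arterial, capillary and unnamed endothelial-like cells of the injured (red, left) and uninjured library (blue, right), with bars for the summed level and lines for 95% counting intervals. Selp, Sele and Ackr1 stand almost only in the venous bars and are higher in injured cells (Selp 1103 and 507 CPM), Vwf is lower there (340 and 1090 CPM), and Icam1 is higher in injured arterial and capillary cells.

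Selplg marked leukocytes. Monocyte/macrophage-like cells held 59.4% of 2056 Selplg UMIs in the injured library and 63.7% of 182 UMIs in the uninjured library, and dendritic-like cells 31.7% and 8.24%. Within monocyte/macrophage-like cells the level was lower in the injured library. It was 67.6 CPM (63.9 to 71.5) in injured and 214 CPM (177 to 257) in uninjured cells, 3.17-fold lower (2.59 to 3.83). A UMI was present in 33.5% of injured and 54.6% of uninjured cells, or 9.09% and 31.5% after thinning. Endothelial-like cells, as a class that should lack the gene, had 3.11% in injured and 0.644% in uninjured cells.

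The cells behind those values were not of the same kind in the libraries. Of the 130 uninjured cells, 117 were in cluster 23, led by Retnla, C1qa and Mgl2, where Selplg was 218 CPM (179 to 263). The injured cells were in cluster 1 (led by Arg1 and Cxcl3), cluster 4 (Chil3 and Il1b), cluster 6 (Ppbp and Ccl12) and cluster 15 (Hp, Plac8 and Ly6c2). Selplg was 49.8, 60.7, 74.5 and 171 CPM in these injured clusters. Cluster 15, the group with Ly6c2 and Plac8 as leading genes, thus had over 2 times the level of the others, with an interval of 150 to 195 that reached that of cluster 23. In the 29 injured cells of cluster 23 the level was 79.1 CPM (48.3 to 122), below the 218 CPM of its uninjured cells.

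Among injured leukocytes outside that class, dendritic-like cells (cluster 7, led by MHC class II genes) had 192 CPM of Selplg (178 to 207) and neutrophil-like cells 119 CPM (94.6 to 149). The name dendritic-like rests on 3 of 9 markers, the fewest that a name allowed. Injured dendritic-like cells also had 10150 CPM of monocyte/macrophage markers, against 23032 CPM in injured monocyte/macrophage-like cells. Neutrophil-like cells numbered 88 in the injured and 0 in the uninjured library. Over all cells kept, Selplg was 6.32-fold higher in the injured library, at 55.9 and 8.84 CPM, while its level within monocyte/macrophage-like cells was lower. The share of leukocytes differed as given above. In endothelial-like cells 18 UMIs in each library gave 2.58-fold higher (1.27 to 5.26). The summed level of 13 monocyte/macrophage markers was 277 CPM in injured and 36.7 CPM in uninjured endothelial-like cells, with 0 and 2 of them at 0, and its part in that value was not tested.

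Icam1, the ligand of the leukocyte integrins LFA-1 and Mac-1, was broadly found, and among the 3 vessel types its level differed between libraries more in arteries and capillaries than in veins. In arterial-like cells it was 244 CPM (196 to 301) in injured and 41.0 CPM (32.7 to 50.8) in uninjured cells, 5.95-fold higher (4.36 to 8.12), and 2.68-fold higher with cells named singly by marker score. In capillary-like cells it was 104 CPM (84.3 to 126) and 33.6 CPM (28.0 to 40.1), 3.08-fold higher (2.34 to 4.05). Venous cells already had 201 CPM (179 to 225) in the uninjured library, against 222 CPM (182 to 269) in the injured one, a ratio of 1.10 (0.875 to 1.38). At resolution 2, on 21 injured venous cells, the venous ratio was 2.54. Veins thus had the highest uninjured level of the 3 vessel types, and injured arterial and venous intervals overlapped. The injured arterial-like cells were a single subcluster led by Cytl1 and Mgp. The uninjured ones joined subclusters of 249 cells (led by Alox12 and Tgfb2), 197 cells (Unc5b and Btnl9) and 94 cells (Gkn3 and Mgp). The part of this mix in the arterial ratios was not tested. Injured capillary-like cells joined subclusters of 91 cells (led by Cxx1a) and 51 cells (Timp4 and Fmo1). The uninjured ones joined subclusters of 670 cells (Hspa1a and Sertad1) and 642 cells (Timp4 and Kcna5), and the part of this was not tested either. Over the other settings the capillary log2 ratio of Icam1 ran from 1.27 to 2.18.

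The share of cells with an Icam1 UMI followed the level in arteries. It was 51.2% of 43 injured and 11.3% of 540 uninjured arterial-like cells, or 18.6% and 4.81% after thinning. In capillary-like cells it was 35.9% (51 of 142) and 8.0% (105 of 1312), or 11.3% and 4.57% after thinning. The top injured arterial cell held 15 of 88 UMIs. In the unnamed endothelial-like cells the order was the other way, with 38.5 CPM (29.8 to 48.8) in injured and 72.7 CPM (61.0 to 86.0) in uninjured cells.

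Leukocytes and stromal cells also carried Icam1. In monocyte/macrophage-like cells it was 111 CPM (106 to 116) in injured and 60.9 CPM (41.9 to 85.5) in uninjured cells, 1.82-fold higher (1.29 to 2.66), and 1.16-fold higher after thinning. Injured neutrophil-like cells had 187 CPM (156 to 224) and injured dendritic-like cells 105 CPM (94.8 to 117). Tenocyte-like cells, the cells of tendon, had 35.5 CPM in injured and 10.9 CPM in uninjured muscle, 3.27-fold higher (2.0 to 5.53) and 1.11-fold higher after thinning, with the injured cells in cluster 20 and the uninjured ones in clusters 17 and 19.

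Icam2, which is constantly present on endothelium, was at close levels in the endothelial-like cells of both libraries. Its level was 369 CPM (350 to 390) in injured and 404 CPM (391 to 417) in uninjured cells, a ratio of 0.915 (0.858 to 0.975). Venous cells had 297 and 296 CPM (ratio 1.00, 0.824 to 1.22) and arterial-like cells 622 and 605 CPM (ratio 1.03, 0.888 to 1.19), but the arterial log2 ratio was -0.98 with cells named singly by marker score. Capillary-like cells had 437 and 374 CPM (ratio 1.17, 1.04 to 1.30). In each library the arterial level was the highest and the venous level the lowest of the 3 named vessel types. Thinned shares of endothelial-like cells with a UMI were 40.9% in injured and 44.8% in uninjured cells.

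Outside endothelium, pericyte or smooth muscle-like cells held 194 of 1764 injured and 6 of 4314 uninjured Icam2 UMIs, and monocyte/macrophage-like cells 165 and 12 UMIs. In monocyte/macrophage-like cells it was 9.13 CPM in injured and 22.1 CPM in uninjured cells, 2.43-fold lower (1.23 to 4.35). The summed level of the 12 endothelial markers there was 35.8 CPM in injured and 644 CPM in uninjured cells, with none at 0 in either library. In tenocyte-like cells Icam2 was 2.19-fold lower (1.03 to 4.94), and the endothelial sum was 105 CPM in injured and 495 CPM in uninjured cells. The top cell held 9 of 11 injured UMIs, and without the top cell of each library the log2 ratio was -3.38. In pericyte or smooth muscle-like cells Icam2 was 9.88-fold higher (4.46 to 27.3), at 138 CPM in injured and 14.0 CPM in uninjured cells. Under 5 other settings, given further on, it was lower instead, with log2 ratios of -0.19 to -0.41. There the endothelial sum was 3535 CPM in injured and 1106 CPM in uninjured cells, and the cells' own 10 markers summed to 5318 and 27414 CPM. The part of these transcripts in the Icam2 values was not tested.

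Vcam1, the ligand of integrin alpha 4 beta 1, came from different cells in the libraries. Of 717 injured UMIs, 49.0% came from clusters 9, 11, 12 and 13, connective tissue cells with markers of fibro-adipogenic progenitors (FAPs), and 22.5% from endothelial-like cells. Of 994 uninjured UMIs, 53.6% came from endothelial-like cells, 28.0% from satellite-like cells (muscle stem cells) and 10.3% from those 4 clusters.

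Within endothelium the direction of the Vcam1 difference depended on the vessel. In venous cells the level was 139 CPM (107 to 177) in injured and 252 CPM (227 to 279) in uninjured cells, 1.81-fold lower (1.39 to 2.4). At resolution 2 it was 1.25-fold higher instead, and the cause was not tested. In arterial-like cells it was 200 CPM (156 to 252) in injured and 48.4 CPM (39.3 to 58.9) in uninjured cells, 4.13-fold higher (3.01 to 5.65). A UMI was found in 13 of 43 injured and 22 of 540 uninjured arterial-like cells, and 1 cell held 20 of 72 injured UMIs and another 28 of 99 uninjured UMIs. The arterial difference was absent with cells named singly by marker score, where the log2 ratio was -0.02. The arterial-like subclusters differed between the libraries, as given with Icam1. Venous shares with a UMI were 49.0% and 47.6%, from deeper injured cells, and thinned shares were 18.4% and 26.6%. Cells with a UMI held 2.71 UMIs of Vcam1 each in injured and 2.16 in uninjured veins.

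Satellite-like cells, known to carry Vcam1, had 319 CPM (283 to 359) in the uninjured library, where 139 of 246 cells (56.5%) had a UMI. The injured library held 0 satellite-like cells, so no comparison was possible. Clusters 9, 11, 12 and 13 were compared by number, because injured cells were almost all in cluster 9 (410 of 428), whose 10 leading genes held 0 FAP markers and 1 lymphatic marker, Pdpn. Vcam1 was 52.1 CPM (46.8 to 57.9) in injured cluster 9, against 23.9, 43.9 and 23.3 CPM in uninjured clusters 11, 12 and 13. Icam1 was 60.1 CPM in injured cluster 9 and 90.3, 43.9 and 11.6 CPM in those uninjured clusters, within their range.

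**Figure D2:**
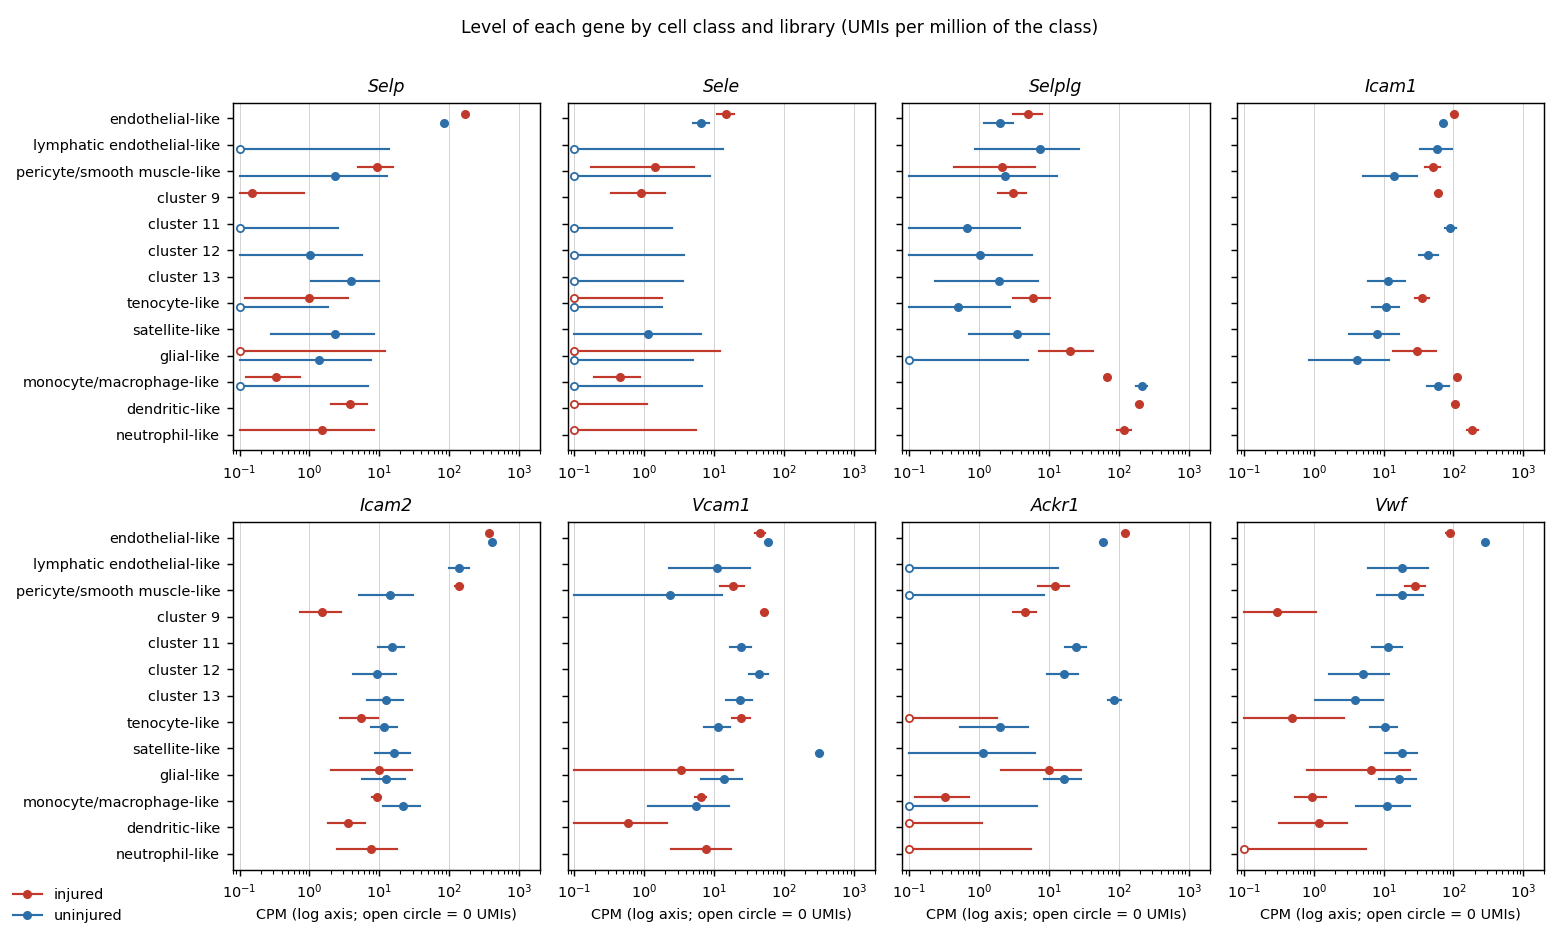
Level in CPM (horizontal axis, log scale) of each gene by cell class, and in clusters 9, 11, 12 and 13, for groups with at least 50 cells in that library, in the injured (red, upper) and uninjured library (blue, lower), with points for the summed level, lines for 95% counting intervals and open circles at the left edge for 0 UMIs. Selp, Sele and Vwf are highest in endothelial-like cells, Selplg in leukocyte classes, and Vcam1 in uninjured satellite-like cells at 319 CPM. Ackr1 is highest in endothelial-like cells in the injured library (123 CPM). In the uninjured library Ackr1 is higher in cluster 13 than in endothelial-like cells (59.4 CPM).

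Ackr1 was a venous transcript with a second place of expression in connective tissue cells. Venous cells held 77.4% of 491 injured UMIs and 74.6% of 714 uninjured UMIs. The venous level was 813 CPM (733 to 898) in injured and 355 CPM (326 to 387) in uninjured cells, 2.29-fold higher (2.0 to 2.61), and 4.41-fold higher at resolution 2. A UMI was found in 67.3% of 49 injured and 35.6% of 368 uninjured cells, or 40.8% and 24.7% after thinning. Single injured cells ranged from 0 to 74.7 per 10000 UMIs with a median of 3.49, and uninjured cells from 0 to 47.5 with a median of 0.

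A single injured venous cell decided part of that ratio. It held 109 of the 380 injured UMIs, and without the top cell of each library the venous ratio was 1.75 and the endothelial ratio 1.62, against 2.07 (1.82 to 2.35) with them. At resolution 2 the endothelial ratio was 1.26. In arterial-like cells Ackr1 had 0 UMIs in 43 injured and 1 UMI in 540 uninjured cells, and in capillary-like cells 2 and 4 UMIs. It was not detected in 53 uninjured lymphatic-like cells (up to 5.66%).

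Ackr1 in injured cluster 9 was below its level in each of the uninjured clusters with FAP markers. It was 4.53 CPM (3.06 to 6.47) in injured cluster 9, against 24.6, 16.3 and 86.2 CPM in uninjured clusters 11, 12 and 13. The highest of these was cluster 13, led by Mrgprg, Smpd3 and Pi16. A UMI was found in 5.61% of injured cells of cluster 9, against 10.2%, 5.28% and 26.0% in uninjured clusters 11, 12 and 13. After thinning the shares were 0.976%, against 2.72%, 2.85% and 13%. These clusters hold different cells in each library, so the values are set side by side. In tenocyte-like cells the share was 0 of 155 injured cells (up to 1.94%) and 0.773% of 388 uninjured cells. Median depth over clusters 9, 11, 12 and 13 was 13913.5 UMIs in injured and 4084.5 UMIs in uninjured cells, and in tenocyte-like cells it was 11352 and 4398.5 UMIs. Glial-like cells had 3 UMIs in 52 injured and 12 UMIs in 253 uninjured cells.

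Vwf was lower in the injured library, and by a similar factor in veins as in all endothelial-like cells. Venous cells had 340 CPM (289 to 397) in injured and 1090 CPM (1038 to 1144) in uninjured cells, 3.21-fold lower (2.72 to 3.8). At resolution 2 its log2 ratio was -0.44, on 21 injured venous cells. Over all endothelial-like cells it was 87.9 CPM (78.4 to 98.3) and 283 CPM (272 to 294), 3.22-fold lower (2.86 to 3.63). Capillary-like cells had 31.4 CPM (21.2 to 44.9) in injured and 77.6 CPM (68.8 to 87.1) in uninjured muscle, 2.47-fold lower (1.69 to 3.73). Arterial-like cells had 239 CPM (191 to 295) in injured and 223 CPM (203 to 245) in uninjured muscle, a ratio of 1.07 (0.839 to 1.35). With cells named singly by marker score the arterial log2 ratio was -1.49, so that the arterial value depended on how arterial cells were named.

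In single venous cells Vwf had a median of 2.31 per 10000 UMIs in injured cells (range 0 to 25.9) and 9.54 in uninjured cells (range 0 to 54.6). The share of venous cells with a UMI was 79.6% and 89.4%, and 44.9% and 70.9% after thinning. Outside endothelium Vwf was lower in monocyte/macrophage-like cells (11.8-fold, 3.80 to 31.3) and tenocyte-like cells (21-fold, 3.38 to 870), on at most 21 UMIs in a library. The endothelial marker sums of both classes are given with Icam2, and their part in these values was not tested.

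**Figure D3:**
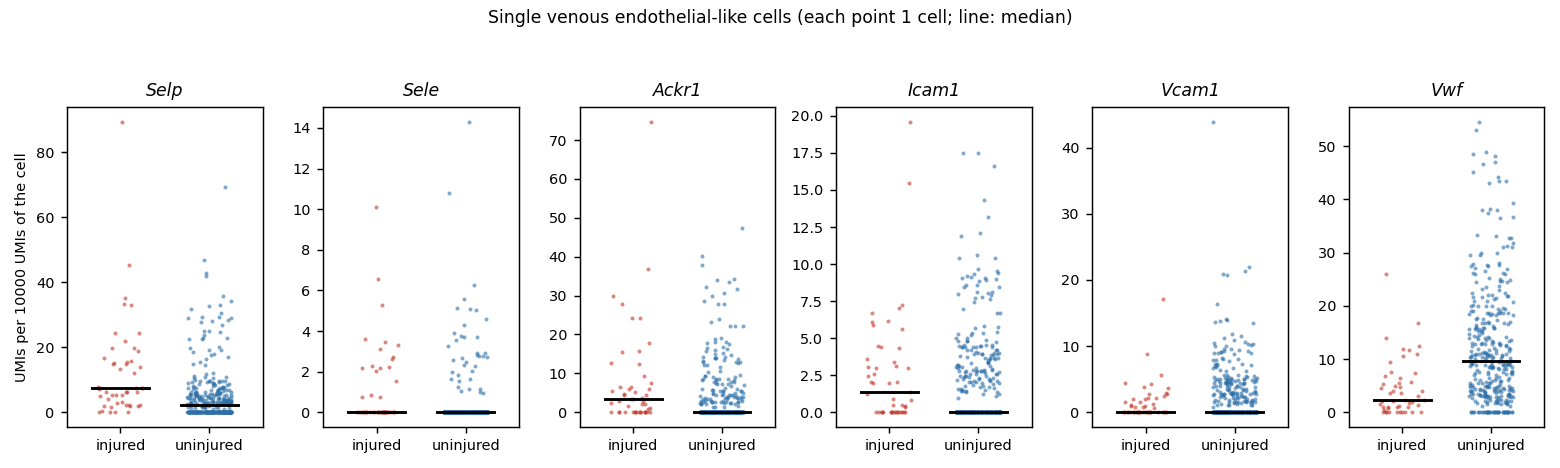
UMIs per 10000 UMIs of the cell (vertical axis, linear) for 6 genes in single venous endothelial-like cells of the injured (red, 49 cells) and uninjured library (blue, 368 cells), with a line at the median. The medians of Selp (7.34 and 2.37) and Ackr1 (3.49 and 0) are higher in injured cells and that of Vwf (2.31 and 9.54) is lower, while the ranges overlap for every gene shown. Injured cells were deeper, with a median of 8927 UMIs against 3605, and medians of sparse counts depend on depth.

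The uninjured venous cells formed 2 subclusters, numbered 5 and 7, which differed in several of the 8 genes. Their median depths were 3209 and 4667 UMIs. Whether they are kinds of vein or states of the same cells was not tested. Subcluster 5 (227 cells, led by Lbp, Fam174b and Fgl2) had 525 CPM of Ackr1 (475 to 578) and 1461 CPM of Vwf (1378 to 1549). Subcluster 7 (141 cells, led by Il6, Tmem252 and Tagln) had 170 CPM of Ackr1 (141 to 203) and 685 CPM of Vwf (626 to 748). Selp was 397 CPM (354 to 444) in subcluster 5 and 626 CPM (570 to 687) in subcluster 7, and Sele 26.8 and 51.6 CPM with intervals that overlapped. The injured venous level lay above both subclusters for Selp, Sele and Ackr1 and below both for Vwf and Vcam1, which had 263 and 240 CPM in them.

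Counted by size, at least 2-fold with at least 20 UMIs over both libraries, all 8 genes could be measured in endothelial-like cells. Of these, 3 were at least 2-fold higher in injured cells (Sele, Selplg and Ackr1), against 10.6% of the 11231 genes measured there, and 1 was lower (Vwf), against 20.6% of genes. Only 1 was higher at resolution 2, with cells named singly by marker score, or in cells at or above the lowest injured depth. In this class Selplg rested on 18 UMIs in each library, and Ackr1 was 1.62-fold higher without the top cell of each library. In venous cells 3 of 7 were higher (Selp, Sele and Ackr1), against 11.2% of 7892 genes, and 1 lower (Vwf), against 19.7%. In arterial-like cells 2 of 4 were higher (Icam1 and Vcam1), against 8.21% of genes, and 0 lower, against 11.4%. In capillary-like cells 2 of 4 were higher (Icam1 and Vcam1, the second at 2.58-fold with an interval of 0.913 to 6.85), against 8.50%, and 1 lower (Vwf), against 14.9%. Under 6 other settings 1 was higher.

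In the other classes the counts were as follows. In monocyte/macrophage-like cells 0 of 5 were higher, against 8.54%, and 3 lower (Selplg, Icam2 and Vwf), against 23.8%. In tenocyte-like cells 2 of 4 were higher (Icam1 and Vcam1), against 9.97%, and 2 lower (Icam2 and Vwf), against 21.9%. After thinning 0 members were higher and 0 lower there, and the Vcam1 log2 ratio was -0.06 with cells named singly by marker score. In pericyte or smooth muscle-like cells 3 of 4 were higher (Icam1, Icam2 and Vcam1), against 19.7%, and 0 lower, against 13.4%. This count was 0 higher and 1 lower under 5 other settings, where Icam2 turned, and Icam1 turned under 1 of them. In glial-like cells 0 members reached 20 UMIs, with 8.58% of all genes higher and 21.4% lower. The median log2 ratio was 0.75 over the 8 genes and -0.21 over all genes in endothelial-like cells, and 0.14 over 7 genes and -0.17 over all genes in venous cells.

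**Figure D4:**
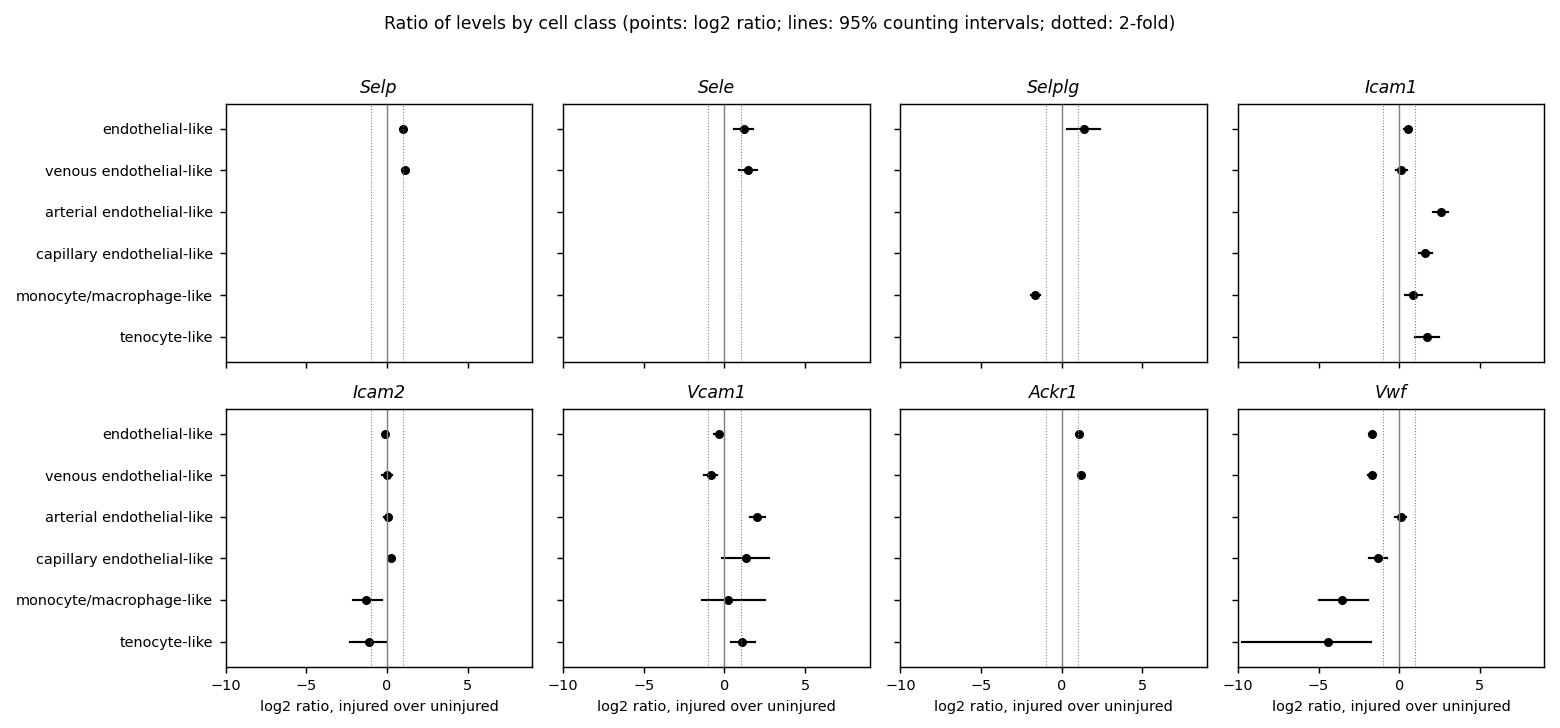
Log2 ratio of the injured over the uninjured level (horizontal axis) of each gene in endothelial-like cells, their vessel types and 2 other classes, for genes with at least 20 UMIs over both libraries, with points for the ratio, lines for 95% counting intervals and dotted lines at 2-fold. Selplg is right of 0 in endothelial-like cells (1.37) and left of it in monocyte/macrophage-like cells (-1.66). Vwf is left of 0 in each class shown except arterial-like cells (0.10, or -1.49 with cells named singly by marker score).

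Depth per cell and stress transcripts differed along with these values. Under 1 setting, only cells with at least as many UMIs as the lowest injured barcode (3333) were kept. The endothelial ratio of Selp was then 1.35, of Sele 1.44, of Ackr1 1.64 and of Vwf 0.267. This limit kept 966 of 2640 uninjured endothelial-like cells and 213 of 368 uninjured venous ones, so venous cells made up more of the class. All 450 injured cells stayed. The part of this mix in the ratios was not tested. Over all other settings, this limit among them, venous log2 ratios were at least 0.97 for Selp, 1.17 for Sele and 0.81 for Ackr1. The summed level of 11 immediate early and heat shock genes such as Fos, Jun and Hspa1a, a list chosen after the values were seen, was 4035 CPM in injured and 9707 CPM in uninjured venous cells. It was 5942 and 12159 CPM in endothelial-like cells, 11560 and 9114 CPM in arterial-like cells, and 7725 and 13435 CPM in capillary-like cells. The part of either in the 8 genes' values was not tested.

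Of the venous genes, Ackr1 and Sele were found mainly in cells that also had Selp. Of injured endothelial-like cells with an Ackr1 UMI, 97.3% (36 of 37) also had Selp, against 4.60% of those without Ackr1. In uninjured cells the shares were 71.0% (98 of 138) and 4.60%. Cells with Ackr1 were deeper, with medians of 9539 against 5654 UMIs in injured and 3613.5 against 2766.5 UMIs in uninjured cells. Within the venous subclusters alone, Selp was found in all 33 injured cells with Ackr1 (100%, 89.4 to 100) and in 12 of the 16 without it. Their median depths were 9415 and 6742.5 UMIs. In uninjured venous cells it was found in 74.0% (65.7 to 81.3) of those with and 44.3% (37.9 to 50.9) of those without Ackr1, at median depths of 3604 and 3606 UMIs. Sele was found in 40.0% of injured venous cells with Selp and in 0 of the 4 without it, at median depths of 9000 and 6196 UMIs. In uninjured venous cells those shares were 17.8% and 1.20%, at median depths of 3831.5 and 3244 UMIs. Of venous cells with Selp, 35 of 45 injured (77.8%) and 192 of 202 uninjured cells had Vwf.

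The partners of the 8 genes were described from lists of related genes, counted in the same way. The shares over all genes to set beside them were 10.6% higher and 20.6% lower in endothelial-like cells (median log2 ratio -0.21), and 8.54% higher and 23.8% lower in monocyte/macrophage-like cells (median -0.18). Weibel-Palade body genes divided in endothelial-like cells, with 4 of 18 higher, 7 lower and -0.35 as the median log2 ratio, against 10.6% and 20.6% of all genes. Plaur, the urokinase receptor, was 19.4-fold higher (16.0 to 23.8), at 246 CPM in injured and 12.6 CPM in uninjured cells. Cd63, a granule tetraspanin that P-selectin needs to stay at the surface, was 10.0-fold higher (470 and 46.9 CPM), and Angpt2, a granule ligand of the Tie2 receptor, 4.44-fold higher (204 and 46.0 CPM). Rab3a, a GTPase of granule release, was 4.90-fold lower (5.11 and 25.0 CPM).

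Among platelet and coagulation partners of Vwf, 5 of 8 measured were higher and 1 was lower (median log2 ratio 1.38), against 10.6% and 20.6% of all genes. Itgb3, the integrin beta 3 chain, was 13.3-fold higher (21.8 and 1.65 CPM), and F8, clotting factor VIII, which Vwf carries in the blood, was 8.13-fold lower (1.31 to 336), on 1 injured and 21 uninjured UMIs. Pf4, a platelet and macrophage chemokine, was 10.1-fold higher (68.9 and 6.81 CPM), but its highest level in another class of at least 50 cells was 71.0 times that of endothelial-like cells.

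Chemokines that bind Ackr1 were higher in endothelial-like cells for 7 of 9 measured and lower for 2, with a median of 3.34, against 10.6% and 20.6% of all genes. Ccl7 was 108-fold higher (130 and 1.21 CPM), Cxcl2 94.1-fold (527 and 5.6 CPM), Ccl2 41.3-fold (172 and 4.17 CPM) and Ccl8 10.6-fold (11.6 and 1.10 CPM). For 8 of these 9 chemokines another class had more than 10 times the endothelial level. The monocyte/macrophage marker sums given above moved with them, and their part was not tested.

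Of 10 anchors and signalling proteins under Icam1 and Vcam1 clusters, 4 were higher and 0 lower (median 0.02), against 10.6% and 20.6%. Flna was 3.27-fold higher (152 and 46.5 CPM), Vasp 2.73-fold (423 and 155 CPM), Msn, the membrane-actin linker moesin, 2.73-fold (954 and 350 CPM) and Cttn, cortactin, 2.01-fold (125 and 62.1 CPM). Of 17 genes of the NF-kappaB pathway, activators and inhibitors together, 4 were higher and 0 lower (median 0.25), against 10.6% and 20.6%. These were Traf1 (3.05-fold, 29.5 and 9.67 CPM), Nfkb2 (2.43-fold, 43.7 and 18.0 CPM), Nfkbie (2.18-fold, 13.9 and 6.37 CPM) and Nfkbib (2.04-fold, 93.0 and 45.7 CPM), the last pair encoding inhibitors of NF-kappaB, and Traf1 was 11.1 times higher in dendritic-like cells.

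Junction and transmigration genes had 2 higher and 4 lower of 13 (median -0.79), near the 10.6% and 20.6% of all genes. Mcam (CD146) was 5.10-fold higher (330 and 64.8 CPM) and Pvr 2.87-fold higher (72.9 and 25.4 CPM), while Ptprb, the phosphatase that holds VE-cadherin junctions, was 3.36-fold lower (263 and 884 CPM) and Jam2 3.09-fold lower (176 and 543 CPM). Of 6 other adhesion ligands, which include Mcam again, 1 was higher and 3 lower (median -0.96), against 10.6% and 20.6%, the lower ones being Cd200 (3.98-fold, 281 and 1117 CPM), Vsir (2.75-fold, 39.7 and 109 CPM) and Bcam (2.74-fold, 164 and 449 CPM). Of 6 mucin-type selectin ligand carriers 0 were higher and 1 lower (median -0.61), against 10.6% and 20.6%. Podxl, a sialomucin of the vessel surface, was 2.06-fold lower (184 and 379 CPM), while Cd44 (1.91-fold higher), Glg1 (1.62-fold lower) and Emcn (1.6-fold lower) stayed under 2-fold. Ptprb and Emcn were also among the markers that named the endothelial-like class.

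On the leukocyte side, in monocyte/macrophage-like cells, enzymes that build selectin ligands had 2 higher and 4 lower of 11 (median 0.00), against 8.54% and 23.8% of all genes. The sialyltransferases St3gal6, St3gal3 and St3gal4 were 9.29-fold (4.37 and 40.6 CPM), 3.98-fold (3.71 and 14.8 CPM) and 2.87-fold lower (25.1 and 72.0 CPM), and Galnt1, which starts O-linked sugar chains, was 2.59-fold lower (25.7 and 66.4 CPM). Uninjured counts were 22 UMIs for St3gal6 and 8 for St3gal3 (interval 1.65 to 8.31). St3gal6 was 3.31 times higher in uninjured endothelial-like cells. The endothelial marker sums are given with Icam2, and their part here was not tested. Of 14 integrins and integrin activators 3 were higher and 3 lower (median 0.33), against 8.54% and 23.8%. Itga4, the alpha chain that binds Vcam1, was 3.02-fold lower (29.9 and 90.4 CPM) and Itgax 4.98-fold lower (7.41 and 36.9 CPM). Itgb2, the beta chain of the Icam1 receptors, was 2.34-fold higher (333 and 142 CPM), and Rap1b, a GTPase that switches integrins on, 2.61-fold higher (1103 and 422 CPM). These ratios, like that of Selplg, set injured clusters 1, 4, 6 and 15 against uninjured cluster 23.

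The genes with the most similar profiles over 17 class-by-library profiles were taken from 11979 genes by Pearson's r of log2(CPM + 1). Profiles of 1 library share its depth and stray RNA, so r is only a description. Selp was most like Gm9889 (0.915), F2rl3 (0.904) and Sele (0.902), and Sele was most like Gm9889 (0.922), Selp (0.902) and Fgfr3 (0.897). Selplg was nearest to Myo1g (0.974), Cfp (0.958) and Plbd1 (0.958), and Icam1 to Arrdc4 (0.912), Ier5 (0.908) and Fxyd5 (0.906). Icam2 followed Gimap4 and Pecam1 (both 0.967) and Rasip1 (0.958), and Vwf followed Unc45b (0.969), Mcf2l (0.953) and Fabp4 (0.948). The values were lower for Ackr1, with Fam198b (0.835), Fam171a1 (0.823) and Srgap1 (0.815), and for Vcam1, with Tcaf2 (0.795), Zfos1 (0.759) and Tln2 (0.758).

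Summed over all cells kept, the libraries gave a different picture from the classes. Selp was 17.1 CPM in the injured and 39.5 CPM in the uninjured library, 2.31-fold lower (2.08 to 2.56), although it was higher in injured venous cells. Ackr1 was 13.4 and 34.7 CPM, 2.60-fold lower, and Sele 1.85 and 3.01 CPM, 1.63-fold lower. Venous cells were 1.15% of injured and 7.17% of uninjured cells kept. Vwf was 10.7 and 142 CPM, 13.2-fold lower (11.9 to 14.7), and Icam1 94.2 and 49.6 CPM, 1.90-fold higher (1.77 to 2.04), with 58.0% of injured UMIs from monocyte/macrophage-like cells and 63.3% of uninjured UMIs from endothelial-like cells.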

How the data were processed

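Per the submitters' processing notes, the authors used Cell Ranger 2.1.1 with the mm10 build. The deposited values are raw UMI counts per gene and barcode, without normalization. The sources used here do not name the annotation release. The injured matrix held 39014762 UMIs (lowest barcode 3333) and the uninjured one 22994502 (lowest 1843).

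Counts of rows that share a symbol were added. Barcodes with fewer than 200 genes (64 injured, 178 uninjured) or over 20% mitochondrial UMIs (4 and 18) were removed. The automatic Scrublet threshold marked 1 barcode per library and so had not worked, and the 161 and 249 highest-scored barcodes, as many as the expected doublet rate gave for each library, were removed instead. Clustering used 2000 variable genes without the 8 members, 30 principal components, 15 neighbours and Leiden resolution 1 (32 clusters, no integration), and each library's endothelial-like cells were clustered again. A marker was present at 20% of cells and 2 times the median over clusters (1.5 times in subclusters). A name needed 3 present markers. A cluster with another lineage at 50% of its highest marker level was called mixed and not compared (36 injured, 324 uninjured cells, among them the pericyte-led cluster 18). A class was not compared where the leading genes of a cluster held fewer of its own markers than of another class, so that clusters 9, 11, 12 and 13 are given by number. Naming rules were adjusted after clusters were seen.

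UMIs were summed per class and library. Levels have exact Poisson intervals, shares exact Clopper-Pearson intervals, and ratios exact conditional binomial intervals, at 95%. The ratio intervals were checked only on simulated Poisson totals without spread between cells, so that check cannot show whether they cover such spread. A 0 was raised to 3 counts, and in counts of genes past 2-fold so was any lower count under 3. Shares were also taken after thinning to 1500 UMIs per cell. Ratios needed at least 50 cells of the class in both libraries, and were given for the vessel types whatever their number. All 8 members were named, with the 4 genes of each list and the 3 most similar genes furthest by log2 ratio or r, except 1 gene that is not reported here. Members and lists were chosen with earlier results of these data known. Other resolutions, doublet handling, depth limits, naming per cell and clustering per library were tried. The tools, with seed 0, were scanpy 1.11.5 and leidenalg 0.10.2 for clusters, scipy 1.17.1 for intervals, pandas 2.3.3, numpy 2.4.6, scikit-learn 1.9.0 and matplotlib 3.10.9, under Python 3.11.15.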

Additional observations from a re-analysis of the deposited data

Results flagged for a closer look

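Some genes were at least 2-fold apart in opposite directions in different classes, with counting intervals that left 1 out. With 1 library per group these differences between classes were not tested. The log2 ratio of injured over uninjured for Selplg was 1.37 in endothelial-like cells, on 18 UMIs in each library, and -1.66 in monocyte/macrophage-like cells. The endothelial value ran from 0.29 to 2.55 over the other settings, and so did not stay at 2-fold, while the monocyte/macrophage value ran from -1.87 to -1.36. For Icam2 it was 3.31 in pericyte or smooth muscle-like cells, against -1.28 in monocyte/macrophage-like cells and -1.13 in tenocyte-like cells. The pericyte value ran from -0.41 to 3.71 and the tenocyte value from -3.62 to -0.12. The endothelial marker sums of these classes are given beside the Icam2 levels.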

How the results depend on the processing

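Of 318 values of 36 ratios under 9 other settings, 289 kept their direction and 29 turned, and 54 moved by over 1.5 times. In endothelial-like cells 72 of 72 kept their direction, and in venous cells 56 of 63. The setting that leaves out each library's cell with the most UMIs of the gene was chosen after seeing the data. It gave log2 ratios of 0.69 and 0.81 for Ackr1 in endothelial-like and venous cells. The cause of the other changes was not tested. In endothelial-like cells, resolution 2 gave 0.25 for Selp and 0.34 for Ackr1. The limit to cells at or above the lowest injured depth gave 0.44 for Selp, 0.52 for Sele, 0.24 for Icam1, -0.71 for Vcam1, 0.71 for Ackr1 and -1.91 for Vwf. Naming each cell by its own marker score gave 0.29 for Selplg. Thinning gave 2.55 for Selplg, 0.84 for Icam1 and -1.44 for Vwf. The mean of per-cell values gave 0.81 for Ackr1 and -1.49 for Vwf. In venous cells, resolution 2 left 21 injured cells and gave 1.98 for Selp, 2.68 for Sele, 1.35 for Icam1, 0.31 for Icam2, 0.33 for Vcam1, 2.14 for Ackr1 and -0.44 for Vwf. Without doublet removal the values were 1.63 for Selp, 2.07 for Sele, -0.39 for Vcam1, 1.71 for Ackr1 and -1.28 for Vwf. The marker score per cell gave 1.67 for Selp, -0.42 for Vcam1, 1.72 for Ackr1 and -1.18 for Vwf. The mean of per-cell values gave 1.31 for Selp and -1.43 for Vwf, and thinning gave 1.31, 0.68, -0.20 and -1.36 for Selp, Icam1, Vcam1 and Vwf. The count of members at least 2-fold higher in endothelial-like cells was 1 at resolution 2, under the marker score and under the depth limit, against 3. The count lower in venous cells was 0 at resolution 2 and 2 with each library clustered alone or with 1.5-fold, against 1. Of the turned values, 7 were in venous, 7 in arterial-like, 12 in pericyte or smooth muscle-like, 2 in monocyte/macrophage-like and 1 in tenocyte-like cells. Those of ratios of at least 2-fold were -0.02 for Vcam1 in arterial-like, -0.06 for Vcam1 in tenocyte-like and -0.83 for Icam1 in pericyte or smooth muscle-like cells under the marker score. Icam2 in the last class was -0.27 at resolutions 0.5 and 2, -0.29 without doublet removal, -0.19 under the marker score and -0.41 with libraries clustered alone; with resolution 0.5 that class held 140 injured and 310 uninjured cells. Ratios under 2-fold that turned included Vwf at -1.49 and Icam2 at -0.98 in arterial-like cells under the marker score, Vwf at -1.75 in pericyte or smooth muscle-like cells and Vcam1 at -0.55 in monocyte/macrophage-like cells with libraries clustered alone. The 49 injured venous and 43 arterial-like cells limit what can be seen. No paired analysis was possible because each group has 1 library.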
